A study of Mus musculus with 12 samples.

Results

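The nuclear genes of the mitochondrial respiratory chain and the ATP synthase were followed in the striatum of 12 mice of a Huntington's disease (HD) cross. They were chosen by symbol: every gene whose probe set carried a single symbol beginning with Nduf, Sdh followed by a, b, c or d, Uqcr, Cox followed by a digit, or Atp5. This gave 101 of the 19248 genes measured, of which 41 belonged to complex I, 8 to complex II, 8 to complex III, 27 to complex IV and 17 to the ATP synthase. These sets include the assembly factors whose symbols begin in the same way. For 14 genes with several probe sets the brightest was used. The cytochrome c oxidase genes Cox7c and Cox16 and the complex I gene Ndufb4 share a probe set with other symbols and were not counted as members. The proteins of these complexes that mitochondrial DNA encodes were not analysed here.

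The respiratory chain lies in the inner mitochondrial membrane. Complex I takes electrons from NADH and complex II from succinate, complex III passes them on to cytochrome c, and complex IV hands them to oxygen. Proton pumping by complexes I, III and IV drives the ATP synthase, whose membrane ring turns a central stalk inside the catalytic F1 head. Striatal medium spiny neurons depend on this supply of ATP, and inhibitors of complex II are known to damage the striatum in animals.

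The mice were 8 weeks old and fell into 4 groups of 3: mice carrying the HD transgene and lacking p62 (HD_p62KO), carriers of the transgene with intact p62 (HD_p62WT), p62 knockout mice without the transgene (NT_p62KO) and mice with neither change (NT_p62WT). p62, encoded by Sqstm1, is an autophagy receptor for ubiquitinated proteins. The cross asked how its loss alters gene expression in the HD model. The sources used here do not give the line, promoter or repeat length of the HD transgene, how p62 was deleted, or whether animals were pooled. RNA came from whole striatum on 1 whole-transcript array per mouse, so fewer cells of a type and less RNA per cell cannot be told apart.

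Sqstm1 itself was lower in the mice labelled as knockouts, by -2.48 on the log2 scale in HD mice and by -2.78 in non-transgenic mice (limma, adjusted p = 4.03e-07 and 1.05e-07). Levels were log2 expression values, and the difference between groups is given on the same scale, so that 1 is a doubling. Among the 101 genes, 66 lay in the brightest 25% of all genes and 13 lay below the median brightness of all genes. Markers of medium spiny neurons, the main striatal cell, were high in all 12 mice, and their mean level was lower with HD. Their mean level over 17 markers was 10.51 to 10.58 in HD_p62KO mice, against 11.13 to 11.33 in NT_p62KO mice, and 10.62 in each HD_p62WT mouse, against 11.07 to 11.23 in NT_p62WT mice. Of these 17, 15 fell and 0 rose without p62, where 8.34% of all genes fell, and 14 fell with p62, where 3.24% of all genes fell. Tac1, which encodes the precursor of substance P, was the 1 marker that rose with p62 (0.33; limma, adjusted p = 0.0492).

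With HD, most respiratory genes stood slightly higher in the deposited values, although their median difference was -0.00065 once each array was scaled to equal SD. Averaged over both p62 states (the mean HD effect), 25 of the 101 rose and 3 fell, led by the complex I genes Ndufc1 and Ndufv1. The difference was positive for 76 of the 101 genes (75.2%), with a median of 0.10. Over all genes it was positive for 46.2%, with a median of -0.02, and in the brightest 25% of genes for 64.5%, with a median of 0.07. Genes were called at an adjusted p below 0.05 in limma, adjusted over all 19248 genes, and for this comparison 35.0% of all genes were called. The 28 respiratory genes called were 27.7%, a smaller share than that of all genes. Of all genes 19.9% rose and 15.0% fell, against 24.8% and 2.97% of the respiratory genes. In the brightest 25% of genes 30.8% rose and 14.2% fell.

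By complex, 13 of 41 complex I genes rose (31.7%) and 0 fell, 3 of 8 complex III genes rose (37.5%), and 5 of 17 ATP synthase genes rose (29.4%). In complex IV 3 of 27 rose and 3 fell, and in complex II 1 of 8 rose. Differences between complexes were not tested. Values of 15 genes were higher in every one of the 6 HD mice than in any of the 6 non-transgenic mice, and 1 gene, Cox4i2, was lower in all 6. These were 14.9% upward and 0.990% downward of the respiratory genes. Among all genes 10.5% were separated upward and 5.69% downward. Among the brightest genes used for comparison above, 17.4% were separated upward and 8.98% downward, more than among the respiratory genes. With each mouse left out in turn, 17 of the 28 genes passed in all 12 refits. Among the rest, Atp5h and Atp5md passed in 9, Atp5b in 7, Uqcrh in 6, Ndufa12 in 5 and Ndufa8 in 3. Over these refits the number called ranged from 17 (without HD_p62WT replicate 1) to 40 (without HD_p62KO replicate 1).

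Array spread moved with these differences. The SD of all log2 values on an array was 1.70 to 1.73 on 4 HD arrays (HD_p62KO replicates 2 and 3, HD_p62WT replicates 1 and 3). It was 1.66 on HD_p62KO replicate 1 and 1.64 on HD_p62WT replicate 2, against 1.58 to 1.67 in the 6 non-transgenic mice. The mean level of the 101 genes was also highest on those 4 HD arrays, at 9.61 to 9.66, with 9.54 on HD_p62KO replicate 1 and 9.52 on HD_p62WT replicate 2, against 9.41 to 9.54 in non-transgenic mice. With the array SD as a covariate, the median of the mean HD effect was 0.02 and 7 of the 101 genes were called, 5 of them upward (Ndufc1, Ndufv1, Atp5c1, Cox19 and Uqcrc2) and Ndufb10 and Cox7a2l downward. In that fit 13.2% of all genes were called. When each array was scaled to equal SD, 22 genes were called, 13 upward and 9 downward, in a fit that called 32.9% of all genes (16.0% upward and 16.8% downward). After quantile normalization again 23 were called upward and 7 downward, against 17.7% and 14.4% of all genes. Whether the array spread is technical or follows from HD was not tested.

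**Figure D1:**
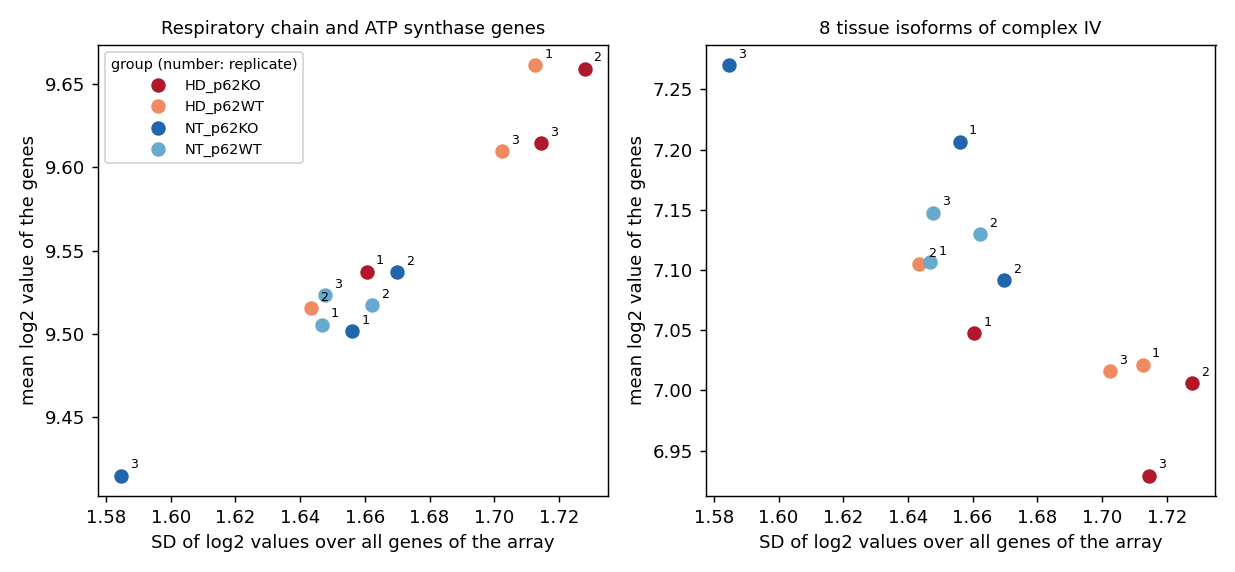
Mean log2 value (vertical axis) of the 101 respiratory chain and ATP synthase genes (left) and of the 8 tissue isoforms of complex IV (right), plotted against the SD of all log2 values of the array (horizontal axis). Each point is 1 mouse, numbered by replicate, and the 4 HD arrays with an SD of 1.70 to 1.73 hold the highest means on the left.

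The promoters of members that carry the result were looked up in RefSeq (GRCm38.p6). The table held 83 of the 101 genes, and for 5 of them with more than 1 promoter the first listed was used. In the 250 bases before the start, motifs were sought on both strands for 2 transcription factors known to act at respiratory genes: the consensus of NRF1 and, for GABP (also called NRF2), CTTCCGG. The GABP motif was present in 16 of 83 members (19.3%) and in 7.05% of 27025 genes, and the NRF1 consensus in 3 members (3.61%) and in 1.01% of genes. Among the 21 matched genes that rose in the mean HD effect, 5 (23.8%) held the GABP motif and 0 that of NRF1, against 11 (17.7%) and 3 (4.84%) of the other 62 members. Shown here are Ndufc1 and Ndufv1, the genes with the smallest p for HD, which held neither motif, and 4 genes that rose and held the GABP motif within 150 bases of the start (Ndufb6 held it farther out). The 150 bases before the start are given 5' to 3' on the gene's strand, with motif matches in capitals, and these genes were chosen after their values were seen.
Ndufc1 (chr3:51408956-51409105, minus strand): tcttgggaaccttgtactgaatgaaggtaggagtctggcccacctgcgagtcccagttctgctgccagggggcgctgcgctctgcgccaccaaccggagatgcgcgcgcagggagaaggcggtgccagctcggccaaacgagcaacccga
Ndufv1 (chr19:4012756-4012905, minus strand): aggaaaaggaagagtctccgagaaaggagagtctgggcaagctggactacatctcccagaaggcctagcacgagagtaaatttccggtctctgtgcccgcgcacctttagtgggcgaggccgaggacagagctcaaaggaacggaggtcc
Ndufaf1 (chr2:119662835-119662984, minus strand): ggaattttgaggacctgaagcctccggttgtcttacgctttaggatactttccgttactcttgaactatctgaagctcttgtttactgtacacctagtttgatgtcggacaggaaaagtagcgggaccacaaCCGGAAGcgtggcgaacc
Atp5h (chr11:115419920-115420069, minus strand): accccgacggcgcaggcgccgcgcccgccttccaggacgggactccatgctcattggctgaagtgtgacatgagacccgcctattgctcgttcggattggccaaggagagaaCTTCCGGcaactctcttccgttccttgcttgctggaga
Uqcrh (chr4:116075071-116075220, minus strand): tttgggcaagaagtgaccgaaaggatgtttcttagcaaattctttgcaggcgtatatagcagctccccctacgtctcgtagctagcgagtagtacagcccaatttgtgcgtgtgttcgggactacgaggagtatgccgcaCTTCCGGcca
Cox6a1 (chr5:115348959-115349108, minus strand): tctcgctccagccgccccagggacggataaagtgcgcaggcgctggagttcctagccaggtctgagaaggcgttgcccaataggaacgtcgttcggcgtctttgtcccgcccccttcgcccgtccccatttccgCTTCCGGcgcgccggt

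Complex I, the largest complex of the chain, held the highest differences. Ndufc1, a small accessory subunit of the membrane arm, had values of 8.79, 9.26 and 9.07 in HD_p62KO mice, against 8.17, 8.64 and 8.00 in NT_p62KO mice. It had 9.25, 8.84 and 8.87 in HD_p62WT mice, against 7.92, 8.29 and 8.32 in NT_p62WT mice. All 6 HD mice lay above all 6 non-transgenic mice. The difference was 0.77 ± 0.18 (SE) without p62 (limma, adjusted p = 0.0141) and 0.81 ± 0.18 with p62 (limma, adjusted p = 0.0233), fold changes of 1.71 and 1.75. With the array SD as a covariate it was 0.41 without p62 (limma, adjusted p = 0.188) and 0.62 with p62 (limma, adjusted p = 0.0283).

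Among the core subunits, which carry the flavin and iron-sulfur centres, Ndufv1, Ndufs1 and Ndufv2 rose in the mean HD effect, 3 of 6. Ndufv1, which binds NADH and flavin, had 10.74, 10.91 and 10.83 in HD_p62KO mice, against 10.48, 10.55 and 10.41 in NT_p62KO mice. It had 10.80, 10.71 and 10.88 in HD_p62WT mice, against 10.60, 10.57 and 10.50 in NT_p62WT mice. HD and non-transgenic mice did not overlap. Its difference was 0.35 ± 0.072 (SE) without p62 (limma, adjusted p = 0.00881) and 0.24 ± 0.072 with p62 (limma, adjusted p = 0.0622). Ndufv1 was the 1 gene of the 16 called without p62 that passed in all 12 refits without a mouse.

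Ndufs1, the large iron-sulfur subunit, had 9.31, 9.48 and 9.40 in HD_p62KO mice, against 9.17, 9.16 and 8.91 in NT_p62KO mice. HD_p62WT mice had 9.40, 9.24 and 9.37, against 9.15, 9.13 and 9.13 in NT_p62WT mice. The HD mice lay above the others in both p62 states, with a difference of 0.32 without p62 (limma, adjusted p = 0.0219) and 0.20 with p62 (limma, adjusted p = 0.148). Ndufv2, a neighbouring iron-sulfur subunit, differed by 0.21 in the mean HD effect (limma, adjusted p = 0.0168). Ndufs7, the brightest core gene, differed by 0.07 and Ndufs3 by -0.11, and neither passed.

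The accessory subunits surround this core and stabilise it. Of 28, 8 rose in the mean HD effect: Ndufc1, Ndufab1, Ndufb6, Ndufa6, Ndufb5, Ndufc2, Ndufa12 and Ndufa8. Ndufab1, the acyl carrier protein that also serves mitochondrial fatty acid synthesis, had 8.04, 8.55 and 8.09 in HD_p62KO mice, against 7.51, 7.79 and 7.46 in NT_p62KO mice. With p62 the values were 8.13, 7.71 and 8.05 in HD_p62WT mice, against 7.57, 7.51 and 7.74 in NT_p62WT mice. The groups did not overlap without p62 and overlapped with p62, where HD_p62WT replicate 2 was low. The difference was 0.64 ± 0.15 (SE) without p62 (limma, adjusted p = 0.0144) and 0.36 ± 0.15 with p62 (limma, adjusted p = 0.159).

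Ndufb6, Ndufb5 and Ndufc2 are subunits of the membrane arm, and Ndufa6 binds the acyl carrier protein. Ndufb6 had 10.85, 11.11 and 10.99 in HD_p62KO mice, against 10.64, 10.72 and 10.42 in NT_p62KO mice, a difference of 0.39 (limma, adjusted p = 0.0179). In HD_p62WT mice it had 11.04, 10.79 and 10.94, against 10.63, 10.63 and 10.75 in NT_p62WT mice, a difference of 0.25 (limma, adjusted p = 0.127). HD mice lay above non-transgenic mice in both. Ndufb5, Ndufc2 and Ndufa6 differed by 0.34, 0.31 and 0.27 without p62 (limma, adjusted p = 0.0307, 0.0224 and 0.0168) and by 0.26, 0.15 and 0.13 with p62, where none passed. Ndufc2 was the brightest accessory gene. The accessory subunit with the most negative mean HD effect was -0.12 (Ndufa7), which did not pass.

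Of 7 assembly factors of complex I, Ndufaf6 and Ndufaf1 rose in the mean HD effect (28.6%), where 19.9% of all genes rose. Ndufaf6, needed for an early assembly step, had 7.31, 7.32 and 7.26 in HD_p62KO mice, against 6.85, 7.06 and 6.39 in NT_p62KO mice. Values were 7.44, 7.13 and 7.30 in HD_p62WT mice, against 6.93, 6.63 and 6.92 in NT_p62WT mice. The lowest HD mouse stood above the highest non-transgenic mouse. The difference was 0.53 ± 0.15 (SE) without p62 (limma, adjusted p = 0.0259) and 0.46 ± 0.15 with p62 (limma, adjusted p = 0.0753). Ndufaf1, which helps to build the membrane arm, had 9.07, 9.20 and 9.21 in HD_p62KO mice, against 8.96, 8.88 and 8.70 in NT_p62KO mice, a difference of 0.31 (limma, adjusted p = 0.0207). With p62 it differed by 0.19 (limma, adjusted p = 0.173). Ndufaf3, the brightest of the factors, had a mean HD effect of 0.13 that did not pass (limma, adjusted p = 0.0542).

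**Figure D2:**
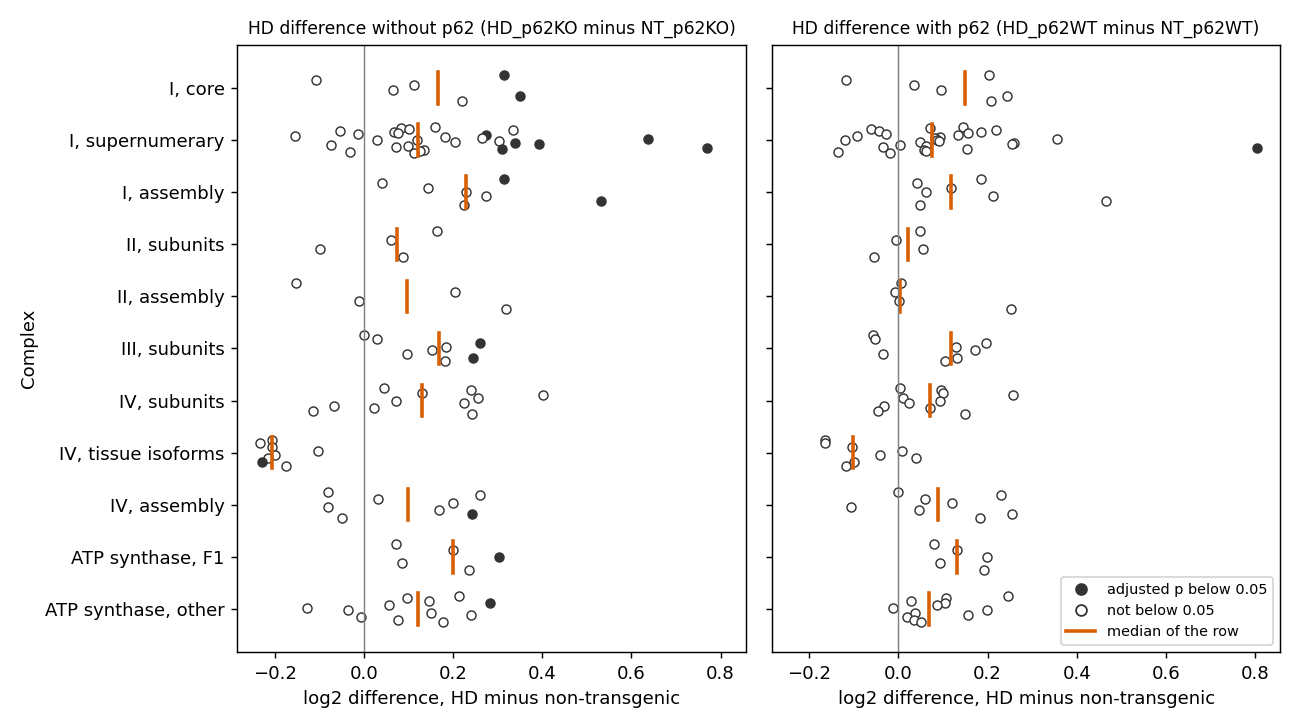
Log2 difference between HD and non-transgenic mice (horizontal axis) for each of the 101 genes, by complex and role (rows), without p62 on the left and with p62 on the right. Filled points have an adjusted p below 0.05 (limma) and the bar is the median of the row; the tissue isoforms of complex IV lie left of 0 in all 8 cases without p62.

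Complex II, which couples the citric acid cycle to the chain, differed little. None of its 4 subunits passed in any HD comparison. Sdha, the flavoprotein that oxidises succinate, had 10.81, 10.90 and 10.94 in HD_p62KO mice, against 10.73, 10.77 and 10.65 in NT_p62KO mice, a difference of 0.16 ± 0.073 (SE; limma, adjusted p = 0.12). With p62 it had 10.91, 10.89 and 10.88 in HD_p62WT mice, against 10.74, 10.97 and 10.82 in NT_p62WT mice, a difference of 0.05 (limma, adjusted p = 0.706). The groups were apart without p62 and overlapped with it. The iron-sulfur subunit Sdhb and the membrane anchors Sdhc and Sdhd had mean HD effects of 0.03, -0.02 and 0.02. Among the 4 assembly factors, Sdhaf4, which assists Sdha, rose by 0.28 in the mean HD effect (limma, adjusted p = 0.0206), and lost the call without HD_p62WT replicate 1 (0.24; limma, adjusted p = 0.0537). Sdhaf3, the brightest of these factors, had 0.00 with p62 and -0.01 without p62.

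In complex III, 3 of 8 subunits rose in the mean HD effect. Uqcrc2, a core protein, had 11.38, 11.39 and 11.34 in HD_p62KO mice, against 11.23, 11.21 and 11.20 in NT_p62KO mice. HD_p62WT mice had 11.41, 11.36 and 11.39, against 11.16, 11.24 and 11.24 in NT_p62WT mice. HD and non-transgenic mice were fully separated, although the mean difference was only 0.16 (limma, adjusted p = 0.00953), and it was 0.15 with the array SD as a covariate (limma, adjusted p = 0.0491). It was 0.04 with arrays scaled to equal SD, where it did not pass (limma, adjusted p = 0.528).

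Uqcrb, which binds near the ubiquinone site, had 11.24, 11.40 and 11.28 in HD_p62KO mice, against 10.99, 11.10 and 11.05 in NT_p62KO mice, a difference of 0.26 (limma, adjusted p = 0.042). With p62 the values were 11.30, 11.07 and 11.27 in HD_p62WT mice, against 11.10, 11.04 and 10.90 in NT_p62WT mice, a difference of 0.20 (limma, adjusted p = 0.16). These last groups overlapped. A further probe set of Uqcrb differed by 0.37 without p62 (limma, adjusted p = 0.0188). Uqcrh, the hinge protein that helps cytochrome c dock, differed by 0.25 without p62 (limma, adjusted p = 0.0487). The Rieske iron-sulfur protein gene Uqcrfs1 had a mean HD effect of 0.03 and did not pass.

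Complex IV was described by kind of gene, and differences between the kinds were not tested. Of 11 subunits expressed in most tissues, 1 rose in the mean HD effect (9.09%), where 19.9% of all genes rose. Among the brightest genes used for comparison above 30.8% rose. Values were positive for 9 of the 11 (81.8%), against 46.2% of all genes and 64.5% of those brightest genes. Cox6a1 had 11.04, 11.16 and 11.32 in HD_p62KO mice, against 10.85, 10.96 and 10.50 in NT_p62KO mice. In HD_p62WT mice it had 11.36, 10.77 and 11.09, against 10.72, 10.96 and 10.77 in NT_p62WT mice. The groups overlapped with p62 and its mean HD effect was 0.33 (limma, adjusted p = 0.0315), a call that held in 5 of the 12 refits without a mouse. Cox4i1, the regulatory subunit of most tissues, differed by 0.04 without p62 and by 0.00 with p62. Cox6c, the brightest of the subunits, had a mean HD effect of 0.08 and did not pass.

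The 8 tissue isoforms, which replace common subunits in muscle, lung or testis and are dim here, held the 3 members that fell in the mean HD effect. All 8 had a negative difference without p62 (median -0.21), where 47.2% of all genes were positive, and 6 of 8 with p62 (median -0.10), where 48.0% were. Without p62 the median was -0.18 under quantile normalization, -0.09 with the array SD as a covariate and -0.21 with arrays scaled to equal SD. In the covariate fit Cox7b2 was positive without p62 (0.04), and Cox7a1 and Cox7b2 were positive with p62 (0.05 and 0.08). Whether the fall follows the array spread was not tested. The share of positive genes also differed with brightness. Among the brightest genes used for comparison above, 66.6% were positive without p62 and 61.3% with p62, more than among all genes. No set of equally dim genes was compared, so whether the fall is particular to these isoforms was not tested. Cox4i2, an isoform induced by low oxygen, had 7.44, 7.34 and 7.32 in HD_p62KO mice, against 7.57, 7.53 and 7.62 in NT_p62KO mice. Values were 7.40, 7.52 and 7.42 in HD_p62WT mice, against 7.68, 7.52 and 7.62 in NT_p62WT mice. No HD mouse reached a non-transgenic mouse before rounding. Its mean HD effect was -0.19 ± 0.049 (SE; limma, adjusted p = 0.0131), and -0.11 with the array SD as a covariate (limma, adjusted p = 0.16).

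Cox8c, a testis isoform, had 7.11, 7.07 and 7.07 in HD_p62KO mice, against 7.33, 7.19 and 7.41 in NT_p62KO mice. It was the 1 member that fell without p62 (-0.23; limma, adjusted p = 0.0443), and its mean HD effect was -0.16 (limma, adjusted p = 0.0288). Ndufa4l2, a paralogue of Ndufa4 induced by low oxygen, had a mean HD effect of -0.15 (limma, adjusted p = 0.0354). With the array SD as a covariate, the mean HD effects of Cox8c and Ndufa4l2 were -0.07 and -0.13, and neither passed (limma, adjusted p = 0.36 and 0.172). In the 12 refits without a mouse, the fall of Cox8c was lost in 10 without p62 and in 8 in the mean HD effect, and that of Ndufa4l2 was lost in 10. The muscle isoforms Cox6a2, Cox7a1 and Cox8b had mean HD effects of -0.20, -0.05 and -0.09, and the testis isoforms Cox6b2 and Cox7b2 had -0.16 and -0.12, and none passed. The common partners Ndufa4, Cox6b1, Cox7a2 and Cox8a had 0.20, 0.13, 0.12 and -0.08, and none of them passed either. The mean level of the 8 isoforms was 6.93 to 7.05 in HD_p62KO mice, against 7.09 to 7.27 in NT_p62KO mice, and 7.02 to 7.10 in HD_p62WT mice, against 7.11 to 7.15 in NT_p62WT mice. Of 5 skeletal muscle markers none passed in either p62 state, with a mean level of 6.11 to 6.38 over the 12 mice.

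Assembly factors of complex IV handle copper, haem and membrane insertion. In the mean HD effect 2 of 8 rose (25%), where 19.9% of all genes rose. Cox19, a small protein linked to copper delivery, had 8.49, 8.55 and 8.57 in HD_p62KO mice, against 8.33, 8.37 and 8.18 in NT_p62KO mice, a difference of 0.24 (limma, adjusted p = 0.0331). HD_p62WT mice had 8.65, 8.47 and 8.58, against 8.27, 8.34 and 8.33 in NT_p62WT mice, a difference of 0.25 (limma, adjusted p = 0.0527). HD mice lay above non-transgenic mice throughout. Cox11, which passes copper to the catalytic core, rose by 0.25 in the mean HD effect (limma, adjusted p = 0.0309), and held in 5 of the 12 refits without a mouse. Cox18, the brightest of these factors, had 0.11 and did not pass.

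**Figure D3:**
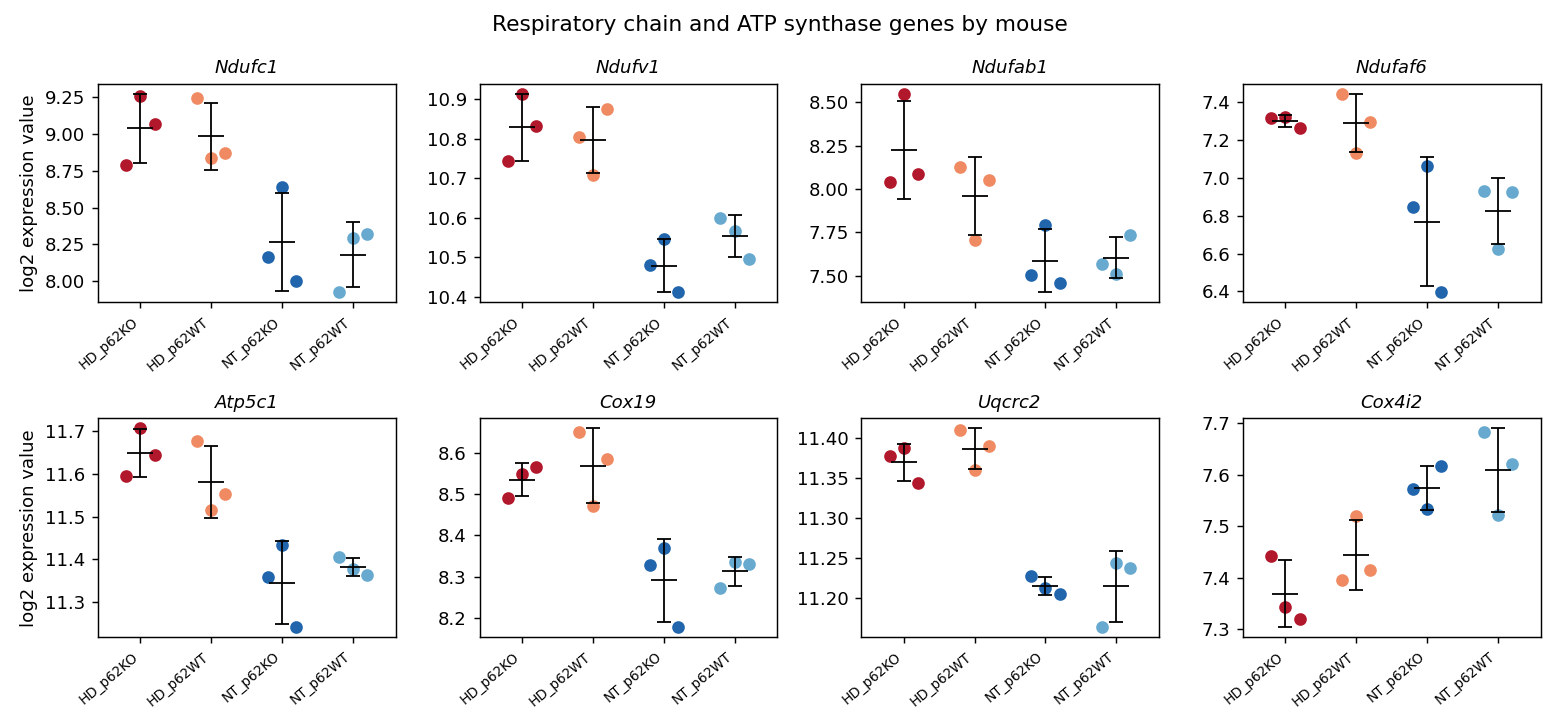
Log2 expression value (vertical axis, not starting at 0) of 8 genes in each mouse by group; points are mice and bars are the mean with its SD (n = 3). In the panels from Ndufc1 to Uqcrc2, all except Ndufab1 have every HD mouse above every non-transgenic mouse, and in that of Cox4i2 every HD mouse is below.

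In the ATP synthase, 2 of 5 subunits of the F1 head (40%) rose in the mean HD effect. So did 3 of 12 of the stalks and membrane part (25%), where 30.8% of the brightest 25% of genes rose. Atp5c1, the central stalk subunit that turns within the head, had 11.59, 11.71 and 11.64 in HD_p62KO mice, against 11.36, 11.43 and 11.24 in NT_p62KO mice. With p62 the values were 11.68, 11.51 and 11.55 in HD_p62WT mice, against 11.41, 11.38 and 11.36 in NT_p62WT mice. HD and non-transgenic mice did not overlap. The difference was 0.30 ± 0.071 (SE) without p62 (limma, adjusted p = 0.0145) and 0.20 ± 0.071 with p62 (limma, adjusted p = 0.105). Atp5b, the catalytic subunit, had a mean HD effect of 0.16 (limma, adjusted p = 0.0249), all 6 HD mice lying above the others. With arrays scaled to equal SD its sign turned, to -0.0012, and the call was lost.

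Outside the head, Atp5h, a subunit of the peripheral stalk, had 11.18, 11.33 and 11.20 in HD_p62KO mice, against 11.00, 11.06 and 10.81 in NT_p62KO mice, a difference of 0.28 (limma, adjusted p = 0.0286). In HD_p62WT mice it had 11.28, 11.13 and 11.20, against 11.07, 11.17 and 11.05 in NT_p62WT mice, a difference of 0.11 (limma, adjusted p = 0.438). The groups overlapped with p62 and were apart without it. The 3 genes Atp5g1, Atp5g2 and Atp5g3 encode the same mature protein of the membrane ring. Of these Atp5g1 rose by 0.23 in the mean HD effect (limma, adjusted p = 0.00994), and Atp5g2 and Atp5g3 had 0.10 and 0.09 and did not pass. Atp5md, a small membrane subunit and the brightest of this set, rose by 0.20 (limma, adjusted p = 0.0224).

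Without p62, 15 of the 101 genes rose with HD and 1 fell (limma), 15.8%, where 21.7% of all genes and 30.2% of the brightest 25% of genes were called. Of the 15 that rose, 10 belonged to complex I, which is 24.4% of its 41 genes. At an unadjusted p below 0.05 there were 39 members (38.6%), against 38.8% of all genes. Of all genes 13.3% rose and 8.34% fell, against 14.9% and 0.990% of the members. The median was 0.12, against -0.02 over all genes and 0.09 in the brightest 25% of genes. Groups did not overlap for 36 genes upward (35.6%) and 9 downward (8.91%), while 22.3% of all genes were apart upward and 17.2% downward. In the brightest 25% of genes 37.2% were apart upward and 14.2% downward. The number called was 1 without NT_p62KO replicate 3, 2 without HD_p62KO replicate 2, 4 without HD_p62KO replicate 3 and 27 without HD_p62KO replicate 1. With arrays scaled to equal SD 10 were called upward and 5 downward, where 20.2% of all genes were called. The count was 0 with the array SD as a covariate, in a fit that called 4.38% of all genes. In this pair of groups markers of choroid plexus, which adjoins the striatum in the ventricle, had a mean level of 7.08 to 9.59 in HD_p62KO mice, against 8.57 to 8.81 in NT_p62KO mice. Their part in these differences was not tested.

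With p62, Ndufc1 was the 1 gene of 101 called (0.990%), where 7.10% of all genes were called by limma, 3.85% upward and 3.24% downward. At an unadjusted p below 0.05 there were 16 members (15.8%), against 25.4% of all genes. The median was 0.06, against -0.01 over all genes and 0.05 in the brightest 25% of genes. Groups did not overlap for 25 genes upward (24.8%) and 5 downward (4.95%), while 17.8% of all genes were apart upward and 15.3% downward. In the brightest 25% of genes 26.1% were apart upward and 16.7% downward. The call of Ndufc1 was lost without HD_p62WT replicate 1 or 3 (0.67 and 0.86; limma, adjusted p = 0.0969 and 0.0599) and without NT_p62WT replicate 1 or 3 (0.68 and 0.87; limma, adjusted p = 0.0871 and 0.0517). Without HD_p62WT replicate 2, the HD_p62WT mouse with the lowest mean of the 101 genes, 5 genes were called, and without NT_p62KO replicate 3 there were 4. Choroid plexus markers had a mean level of 7.16 to 8.82 in HD_p62WT mice, against 7.22 to 7.69 in NT_p62WT mice.

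**Figure D4:**
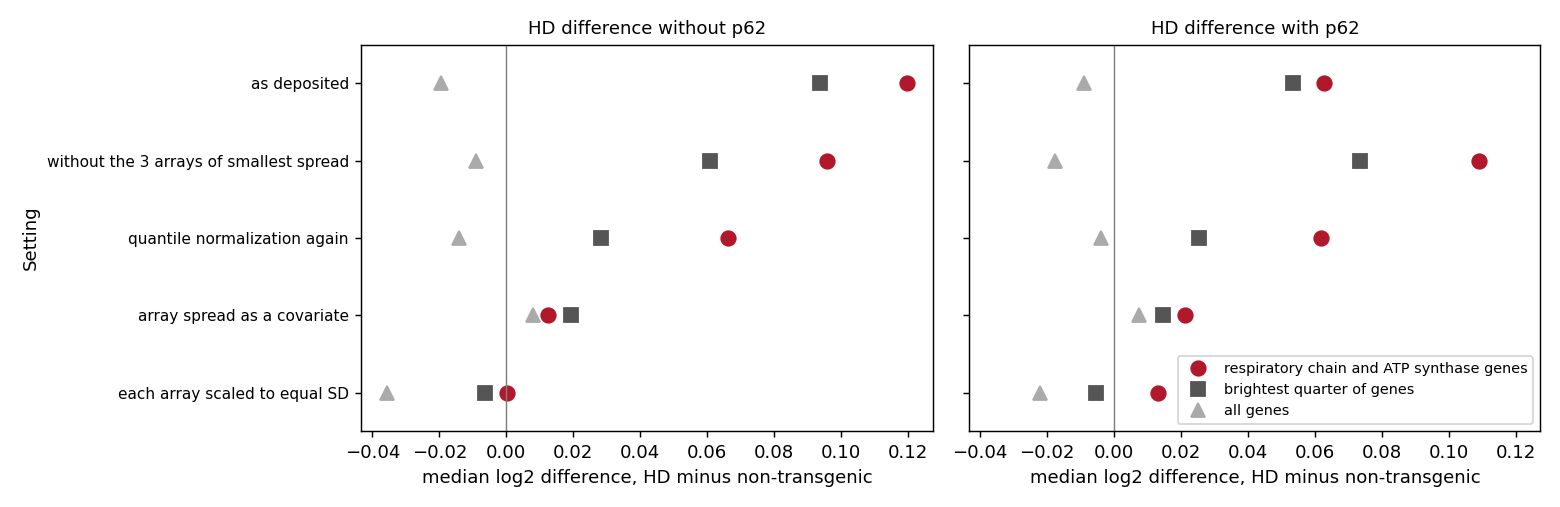
Median log2 difference between HD and non-transgenic mice (horizontal axis) of the 101 genes, the brightest 25% of genes and all genes, under 5 treatments of the arrays (rows), without p62 on the left and with p62 on the right. Medians of the 101 genes of 0.12 and 0.06 as deposited became 0.01 and 0.02 with the array SD as a covariate.

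Loss of p62 called no respiratory gene. In HD mice, comparing HD_p62KO with HD_p62WT, 0 of the 101 genes passed (limma), and 0 did at an unadjusted p below 0.05, where 0.00520% and 2.88% of all genes passed. In non-transgenic mice, comparing NT_p62KO with NT_p62WT, 0 passed and 1 had an unadjusted p below 0.05, where 0.00520% and 3.32% of all genes did. That gene was Cox8b, with 7.14, 7.12 and 7.14 in NT_p62KO mice, against 6.74, 6.85 and 6.83 in NT_p62WT mice, a difference of 0.33 ± 0.13 (SE) whose groups did not overlap. In HD mice it had 6.73, 7.28 and 6.74 without p62, against 7.02, 6.75 and 6.77 with p62, and the groups overlapped.

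The intervals show what size of p62 effect these data leave possible. In HD mice the 95% interval of the difference lay within 0.25 of 0 for 64 of the 101 genes and within 0.5 for 100, and in non-transgenic mice for 57 and 100. Averaged over both HD states, 93 lay within 0.25 and 101 within 0.5, where 0.0104% of all genes and 0 members were called by limma. Uqcrq, a complex III subunit on chromosome 11 (53427922 to 53430831, GRCm38.p6), was the 1 member within 10 Mb of Sqstm1, 3.23 Mb away. Its p62 effect was -0.0030 ± 0.097 (SE) in HD mice and -0.08 ± 0.097 in non-transgenic mice, neither called.

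Besides Sqstm1, the 1 gene called for the mean p62 effect among all genes was Lyrm7, an assembly factor that holds the Rieske protein of complex III before its insertion. Lyrm7 had 6.92, 6.85 and 6.68 in HD_p62KO mice, against 8.26, 7.92 and 7.63 in HD_p62WT mice. It had 7.12, 6.98 and 6.77 in NT_p62KO mice, against 7.76, 8.05 and 8.18 in NT_p62WT mice. Every knockout mouse was lower than every mouse with normal p62, and the mean p62 effect was -1.08 ± 0.11 (SE; limma, adjusted p = 0.00382), called in all 12 refits without a mouse. Lyrm7 lies on chromosome 11 (54826866 to 54860921, GRCm38.p6), 4.63 Mb from Sqstm1, and an effect of p62 and of chromosome segments carried along with the knockout allele cannot be told apart. The Rieske gene Uqcrfs1, whose protein Lyrm7 handles, was not called for p62.

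Whether the HD effect itself changed with p62 was tested by the difference of the 2 HD effects, which called 0 of the 101 genes (limma) and 0.00% of all genes. At an unadjusted p below 0.05 it took 0 members and 3.45% of all genes. The difference between 16 genes called without p62 and 1 called with p62 is therefore not a tested difference. The interval that reached farthest from 0 ran to 0.74, for Ndufab1, whose HD effect was 0.28 larger without p62, and 14 of the 101 intervals lay within 0.25 of 0.

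Genes that work beside the chain were taken from further lists. Of 16 genes of pyruvate dehydrogenase and the citric acid cycle, 10 rose in the mean HD effect (62.5%) and 0 fell, with a median of 0.18. Over all genes 19.9% rose and 15.0% fell, and in the brightest 25% of genes 30.8% rose, with a median of 0.07. Dld, the lipoamide dehydrogenase shared by their large enzyme complexes, had 8.79, 9.10 and 9.09 in HD_p62KO mice, against 8.27, 8.45 and 8.04 in NT_p62KO mice, a difference of 0.74 (limma, adjusted p = 0.00573). Values were 8.93, 8.56 and 8.87 in HD_p62WT mice, against 8.15, 8.49 and 8.19 in NT_p62WT mice, a difference of 0.51 (limma, adjusted p = 0.0451). HD mice were above the others in both. Cs, citrate synthase, differed by 0.30 without p62 (limma, adjusted p = 0.00934) and by 0.23 with p62 (limma, adjusted p = 0.0483). The calls with p62 were fragile, lost in 11 of 12 refits without a mouse for Cs and in 7 for Dld. The pyruvate dehydrogenase genes Pdhb, Dlat, Pdhx and Pdha1 rose by 0.38, 0.27, 0.23 and 0.21 in the mean HD effect (limma, adjusted p = 0.00431, 0.0165, 0.0168 and 0.0225), the first 3 in all 12 refits and Pdha1 in 6. Idh3a, of isocitrate dehydrogenase, and Dlst, of the oxoglutarate dehydrogenase complex, rose by 0.38 and 0.18 (limma, adjusted p = 0.00121 and 0.0142), in all 12 refits. The succinyl-CoA ligase genes Sucla2 and Suclg2 rose by 0.18 and 0.16 (limma, adjusted p = 0.034 and 0.0268), in 3 and 7 of the 12. With the array SD as a covariate, 3 of the 16 rose in the mean HD effect: Dld by 0.38, Idh3a by 0.24 and Cs by 0.21.

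Of 27 further assembly factors, 8 rose and 2 fell in the mean HD effect, 37.0%, a share near the 35.0% of all genes called. Higd2a, a factor tied to complexes III and IV, had 11.00, 11.08 and 11.03 in HD_p62KO mice, against 10.75, 10.69 and 10.57 in NT_p62KO mice. HD_p62WT mice had 11.13, 11.11 and 11.15, against 10.76, 10.79 and 10.80 in NT_p62WT mice. The groups were far apart, with a difference of 0.37 without p62 and 0.35 with p62 (limma, adjusted p = 0.00407 and 0.00942). Both calls held in all 12 refits without a mouse and with the array SD as a covariate (0.30 and 0.31; limma, adjusted p = 0.0262 and 0.00882). Atpaf2, a chaperone for assembly of the F1 head, rose by 0.76 without p62 (limma, adjusted p = 0.00384) and had 0.39 with p62 (limma, adjusted p = 0.0871). Acad9 and Foxred1, factors of complex I, rose by 0.35 and 0.22 in the mean HD effect (limma, adjusted p = 0.00564 and 0.0181), and Uqcc1, of complex III, rose by 0.39 (limma, adjusted p = 0.00262). Coa6, a copper factor of complex IV, rose by 0.33, Oxa1l, which inserts proteins into the inner membrane, by 0.16 and Higd1a by 0.23 (limma, adjusted p = 0.0131, 0.0143 and 0.0455). These 6 calls held in all 12 refits, except that of Higd1a, which held in 4. Tmem70, of ATP synthase assembly, rose by 0.28 without p62 (limma, adjusted p = 0.0374), in 6 of the 12. Sco1, a copper chaperone of complex IV, fell by 0.24 and Ttc19, of complex III, fell by 0.15 in the mean HD effect (limma, adjusted p = 0.00955 and 0.0193), in 12 and 11 of the 12. When the array SD was a covariate, the mean HD effect still called Higd2a, Atpaf2 and Ttc19 (limma, adjusted p = 0.0027, 0.0154 and 0.0292). Acad9, Foxred1, Uqcc1, Coa6, Oxa1l, Higd1a and Sco1 did not pass (limma, adjusted p = 0.114, 0.131, 0.0513, 0.232, 0.128, 0.775 and 0.0921). Bcs1l, also among the 27, was called only in that fit (-0.19; limma, adjusted p = 0.0392). Of 4 further electron carriers and subunits, cytochrome c (Cycs) and cytochrome c1 (Cyc1) rose by 0.32 and 0.27 without p62 (limma, adjusted p = 0.035 and 0.0499), calls that held in 8 and 3 of the 12 refits.

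Among 16 regulators of mitochondrial biogenesis, 8 rose and 2 fell in the mean HD effect, against 19.9% and 15.0% of all genes. Of the 8 that rose, Gabpa, Tfam and Tfb1m did so in all 12 refits without a mouse. Gabpa, the DNA-binding subunit of GABP, had 8.05, 8.26 and 8.10 in HD_p62KO mice, against 7.77, 7.87 and 7.37 in NT_p62KO mice, a difference of 0.47 (limma, adjusted p = 0.0215). With p62 the values were 8.20, 7.95 and 8.17 in HD_p62WT mice, against 7.71, 7.53 and 7.55 in NT_p62WT mice, a difference of 0.51 (limma, adjusted p = 0.0299). HD mice were above non-transgenic mice in both, and these calls held in 9 and 7 of the 12 refits. Tfam, which packages and transcribes mitochondrial DNA, rose by 0.54 without p62 (limma, adjusted p = 0.0201; 8 of 12 refits) and had 0.38 with p62 (limma, adjusted p = 0.111). Tfb1m and Tfb2m, which act on mitochondrial ribosomal RNA and transcription, rose by 0.28 and 0.21 in the mean HD effect (limma, adjusted p = 0.0137 and 0.0261), Tfb2m in 5 refits. The coactivator Pprc1, the GABP subunit Gabpb1, the mitochondrial RNA polymerase Polrmt and the transcription factor Yy1 rose by 0.41, 0.24, 0.14 and 0.14 (limma, adjusted p = 0.0286, 0.0311, 0.0404 and 0.037), in 4, 4, 2 and 3 refits. Ppargc1a, the coactivator PGC-1alpha, had 10.06, 10.31 and 10.11 in HD_p62KO mice, against 10.19, 10.16 and 10.08 in NT_p62KO mice. Its differences of 0.02 without p62 and 0.06 with p62 did not pass (limma, adjusted p = 0.872 and 0.623). Its relative Ppargc1b and the nuclear receptor Esrra fell by 0.16 and 0.15 in the mean HD effect (limma, adjusted p = 0.0376 and 0.041), calls that held in 3 and 2 of the 12 refits without a mouse. With the array SD as a covariate, 1 of these 16 genes rose in the mean HD effect, Gabpa, by 0.29 (limma, adjusted p = 0.0233), and 2 fell.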

How the data were processed

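Per the labels' protocols, 100 ng of striatal RNA of each of the 12 samples was hybridised to a whole-transcript Affymetrix array. The deposited unit is log2 expression, 1 value per probe set and mouse, and the authors used RMA, per the submitters' processing notes. The sources used here do not give its version or settings. Since RMA normalizes between arrays, a change common to most genes cannot be seen in these values. No detection calls were used. Values ran from 1.99 to 13.77.

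The platform table gave 19942 of 24055 probe sets a single symbol and 1225 several, and 2888 had no entry. The brightest probe set was kept for each of 19248 genes. All 101 members matched the gene table (GRCm38.p6). Closely related copies of a gene, such as pseudogenes, may share probes, which was not checked.

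Groups and replicate numbers came from the titles, which call the samples biological replicates. Each was taken as 1 mouse, and the p-values reflect only the variation among these mice, part of which may be technical. limma 3.58.1 in R 4.3.3 was used with a term for each group over all 12 arrays (8 residual and 4.14 prior degrees of freedom; eBayes without trend), for 7 comparisons. The Benjamini-Hochberg adjustment took in all 19248 genes, and 0.05 was the threshold. The script was tested on simulated data. Precision is limited by 3 mice per group. Mice of the same replicate number were not treated as pairs. Their deviations from group means correlated at -0.337 to 0.206, over 0.1 in 4 of 18 pairs. With 3 arrays per group these correlations cannot settle whether a replicate number marks shared handling. Arrays of a group correlated at 0.988 to 0.995, and none were identical.

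Members and lists were chosen with earlier results of these data known. Named were all members called in a direction, or the 10 with the smallest p where more were, and in each list the brightest member and the one with the largest HD difference. Isoform pairs, members near Sqstm1, called genes of the pathway lists, Ppargc1a and Lyrm7 were also named. Ndufs3, Ndufa7, Uqcrfs1, Sdhb and Sdhd were added after their values were seen. Lists of medium spiny neurons, choroid plexus and skeletal muscle were described by mean levels or calls from the fit over all genes. No list was tested. Of further lists, 4 of 8 oligodendrocyte, 2 of 9 astrocyte and 1 of 6 endothelial markers fell in the mean HD effect. So did 1 of 5 ependymal and 1 of 7 cortical excitatory markers. In these lists 1 astrocyte marker rose, as did 1 of 9 microglia markers. Of all genes 15.0% fell and 19.9% rose. The red blood cell list had 1 gene measured and is not reported. Promoters came from RefSeq.

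Alternatives were quantile normalization again, equal medians, filters on dim genes, the average of a gene's probe sets, fits with the groups compared alone, array weights, variances fitted with a trend or robustly, a replicate block, other thresholds, the array SD as a covariate, leaving out the 3 arrays of smallest SD and leaving out each mouse. The array interquartile range as a covariate and scaling to equal SD were added after seeing the data.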

Additional observations from a re-analysis of the deposited data

How the results depend on the processing

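Counts of members are followed by the share of all genes called in the same fit. A range of counts is followed by the range of shares over the same fits, whose ends need not come from the same fit. With p62, 1 member was called as reported (7.10%), and the count was 0 to 5 with each mouse left out (2.07% to 10.6%). It was 5 after quantile normalization again (9%), 3 and 5 without genes under the 25th and 50th percentile of brightness (12.1% and 18.0%), 5 with trended variances (9%), 20 with array weights (24.0%), 2 with the groups compared alone (7.30%) and 2 with the interquartile range as a covariate (6.11%), and 0 and 6 at thresholds of 0.01 and 0.1 (1.43% and 14.5%). Without p62, 16 were called as reported (21.7%) and 1 to 27 with each mouse left out (6.61% to 26.6%). The count was 27 without genes under the 50th percentile (36.3%), 40 with array weights (34.6%), 3 with the groups compared alone (9.05%), and 1 and 33 at thresholds of 0.01 and 0.1 (5.03% and 33.6%). It was 0 with the array SD as a covariate (4.38%), 0 with the interquartile range as a covariate (2.71%) and 1 (9.30%) without the 3 arrays of smallest SD (NT_p62KO replicate 3, HD_p62WT replicate 2 and NT_p62WT replicate 1). For the mean HD effect, 28 were called as reported (35.0%) and 17 to 40 with each mouse left out (25.9% to 39.2%). The count was 50 with array weights (49.2%), 7 with the array SD (13.2%) and 4 with the interquartile range as a covariate (9.23%), and 13 at a threshold of 0.01 (16.7%). The cause of these changes was not tested, beyond fewer genes or mice in some fits.

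With the replicate block, 1, 11 and 23 members were called with p62, without p62 and in the mean HD effect (3.68%, 15.9% and 29.9%), and 0 in the p62 comparisons and in the difference of the HD effects, so that it moved no count by over 1.5 times. The p62 comparisons and the difference of the HD effects called 0 members under every alternative run, including each mouse left out. With arrays scaled to equal SD, 15 members were called without p62 (10 upward, 5 downward) and 22 in the mean HD effect (13 upward, 9 downward), against 15 upward and 1 downward, and 25 upward and 3 downward, as deposited. In the mean HD effect Atp5b then reversed, to -0.00115 (limma, adjusted p = 0.989). After quantile normalization again the mean HD effect called 23 upward and 7 downward.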
